A study of Mus musculus with 5 samples.

Results

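The subunits of the mitochondrial respiratory chain that are encoded in the nucleus were examined in Langerhans cells, which are the phagocytes that reside in the epidermis. The members were all protein-coding mouse genes in the count table whose RefSeq symbol begins with Nduf and a subunit letter (a, b, c, s or v) and number, is Sdha, Sdhb, Sdhc or Sdhd, begins with Uqcr, begins with Cox4 to Cox8 and a letter, or begins with Atp5. This gave 86 of the 27179 genes in the table, of which 39 belong to complex I, 4 to complex II, 8 to complex III, 18 to complex IV and 17 to complex V. Ndufa4 is listed by its symbol under complex I, although the protein is now counted with complex IV. The subunits Ndufab1 and Cyc1 and the carrier Cycs fall outside these symbols and are given separately.

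Messenger RNA was profiled in 5 libraries, each from 5000 cells purified from skin at an age of 1 week, on the C57BL/6 background. There were 2 libraries from wild type mice (WT) and 3 from mice with a conditional Suz12 deletion (Suz12 cKO), and the design text calls the libraries of a group biological replicates. Suz12 belongs to the core of Polycomb repressive complex 2, an enzyme that methylates histone H3. The sources used here do not give the Cre driver of the conditional allele, the number of animals per library or their sex.

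Complexes I to IV pass electrons from NADH and succinate to oxygen and pump protons across the inner mitochondrial membrane, except complex II, which feeds electrons without pumping. Complex V, the ATP synthase, uses the proton gradient to make ATP. Most subunits are encoded in the nucleus and imported into mitochondria, while a few core subunits of complexes I, III, IV and V are encoded by mitochondrial DNA. The nuclear genes are transcribed in nearly all tissues, several of them under the factors NRF1, GABP and YY1, and some subunits of complex IV have isoforms typical of heart, skeletal muscle, testis or lung.

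Promoter sequences were available for 69 of the 86 members, from RefSeq on GRCm38.p6, each window running from 250 bases before to 50 bases after an annotated start. For 60 members that start lay within 50 bases of the outer end of the RefSeq gene. In Atp5d, Atp5g3, Cox5a and Cox7a2 it lay over 1000 bases inside the gene, and 5 members had more than 1 window, of which any could hold a motif. They were searched on both strands for GCATGCGC (NRF1), CCGGAAG (the ETS core bound by GABP) and AAGATGGCG (YY1). The NRF1 letters were present in 10 of 69 members (14.5%) against 686 of 16784 promoters of protein-coding genes (4.09%). The ETS letters were present in 17 members (24.6%) against 13.3% of protein-coding promoters, and the YY1 letters in 7 members (10.1%) against 2.22%. A match is a description of the letters and not evidence of binding. The promoters below are those of Sdhb, the most abundant subunit of complex II, of Cox6a1 and Uqcr11, which carry the same pair of motifs but were abundant and at 0 counts, and of the isoform pair Cox7a1 and Cox7a2, which had similar levels per length. Capitals mark every motif match. In Cox6a1 the capital run of 10 bases holds the NRF1 letters on both strands, which overlap. The regions are chr4:140961021-140961320 (plus strand) for Sdhb, chr5:115348909-115349208 (minus strand) for Cox6a1, chr10:80406772-80407071 (minus strand) for Uqcr11, chr7:30183921-30184220 (plus strand) for Cox7a1 and chr9:79759804-79760103 (minus strand) for Cox7a2.
Sdhb: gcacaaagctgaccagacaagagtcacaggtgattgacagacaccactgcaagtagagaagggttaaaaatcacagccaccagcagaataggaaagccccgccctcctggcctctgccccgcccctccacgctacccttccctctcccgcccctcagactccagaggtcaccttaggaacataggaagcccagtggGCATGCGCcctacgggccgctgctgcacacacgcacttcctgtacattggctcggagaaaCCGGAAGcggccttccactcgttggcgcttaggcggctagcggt
Cox6a1: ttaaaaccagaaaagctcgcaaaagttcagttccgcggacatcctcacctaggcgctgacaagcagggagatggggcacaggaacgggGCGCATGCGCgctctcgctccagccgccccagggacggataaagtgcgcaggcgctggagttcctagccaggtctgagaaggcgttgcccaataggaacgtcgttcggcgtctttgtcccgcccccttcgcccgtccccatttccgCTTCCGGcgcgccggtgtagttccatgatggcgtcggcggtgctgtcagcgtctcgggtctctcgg
Uqcr11: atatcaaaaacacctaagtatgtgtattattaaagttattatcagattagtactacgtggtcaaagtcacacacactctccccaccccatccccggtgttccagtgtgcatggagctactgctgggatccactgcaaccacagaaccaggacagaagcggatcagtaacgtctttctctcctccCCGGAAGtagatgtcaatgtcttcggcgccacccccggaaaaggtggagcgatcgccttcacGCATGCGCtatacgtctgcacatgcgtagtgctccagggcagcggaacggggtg
Cox7a1: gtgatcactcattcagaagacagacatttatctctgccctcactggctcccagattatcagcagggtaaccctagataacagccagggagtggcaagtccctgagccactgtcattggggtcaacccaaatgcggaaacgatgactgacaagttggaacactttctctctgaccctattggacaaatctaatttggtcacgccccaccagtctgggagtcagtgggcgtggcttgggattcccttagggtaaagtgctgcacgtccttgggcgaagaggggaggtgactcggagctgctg
Cox7a2: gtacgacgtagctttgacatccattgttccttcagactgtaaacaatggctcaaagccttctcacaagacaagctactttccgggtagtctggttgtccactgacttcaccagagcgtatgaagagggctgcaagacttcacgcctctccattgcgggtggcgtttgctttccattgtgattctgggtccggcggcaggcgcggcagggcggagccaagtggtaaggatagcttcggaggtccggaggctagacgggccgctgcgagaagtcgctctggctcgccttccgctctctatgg
In the promoters of Sdhb, Cox6a1 and Uqcr11 both the NRF1 and the ETS letters were found. None of the 3 motifs was found in the windows of Cox7a1 and Cox7a2. The window of Cox7a2 surrounds a start 11569 bases inside the RefSeq gene and 25 bases from the nearest GENCODE transcript start, and the outer end of that gene was not searched.

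The libraries held 12090062 to 25725900 counts assigned to genes, and cKO replicate 2 was the deepest. Suz12 had 88 and 39 counts in WT and 0, 0 and 7 in cKO, in the direction of the labels. At these low counts its log2 fold change was -4.11 (standard error 2.87, edgeR unadjusted p = 0.198, adjusted p = 0.999). The source label names alveolar macrophages, while the titles, tissue and protocol name Langerhans cells. Cd207, which encodes langerin, lay between 6605 and 14547 CPM (the count scaled to a common library size with TMM factors), and no counts of Siglecf, Car4 or Chil3, which mark alveolar macrophages, were found in any library. Marco, Ear1, Ear2, Fabp4 and Pparg, the rest of the 8 genes listed for alveolar macrophages, did have counts. Of the 8 genes, 2 reached 1 CPM in every library. Summed over 14 genes, of which 9 reached 1 CPM in every library, keratinocyte markers lay at 300 and 684 CPM in WT and at 697, 1068 and 976 CPM in cKO, so the groups did not overlap. Summed levels of the marker lists of melanocytes (33.0 to 427 CPM), fibroblasts and endothelium (9.73 to 210 CPM), T cells (249 to 769 CPM), mast cells (0 to 5.78 CPM) and alveolar macrophages (72.9 to 519 CPM) overlapped between the groups. Pdgfra and Cdh5 among the stromal genes, and Cpa3, Mcpt4, Tpsb2 and Cma1 among the mast cell genes, were at 0. The part of these cells in the results below was not tested.

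Respiratory chain transcripts were among the abundant messages of these cells. Of the 86 members, 78 reached 1 CPM in every library, including all 17 of complex V and all 4 of complex II. Their median level per length was 419 CPM per kb of exon, against 6.84 CPM per kb for all 9988 genes with enough counts to test. Members below 1 CPM in any library were also left out of the medians by complex. Over all libraries, that median was 819 CPM per kb for 17 members of complex V and 758 for 13 of 18 in complex IV. It was 582 for 7 of 8 in complex III, 316 for 37 of 39 in complex I and 42.7 in complex II. Among the members kept, complex II had the lowest median in each of the 5 libraries, and complexes IV and V lay above complex I.

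**Figure D1:**
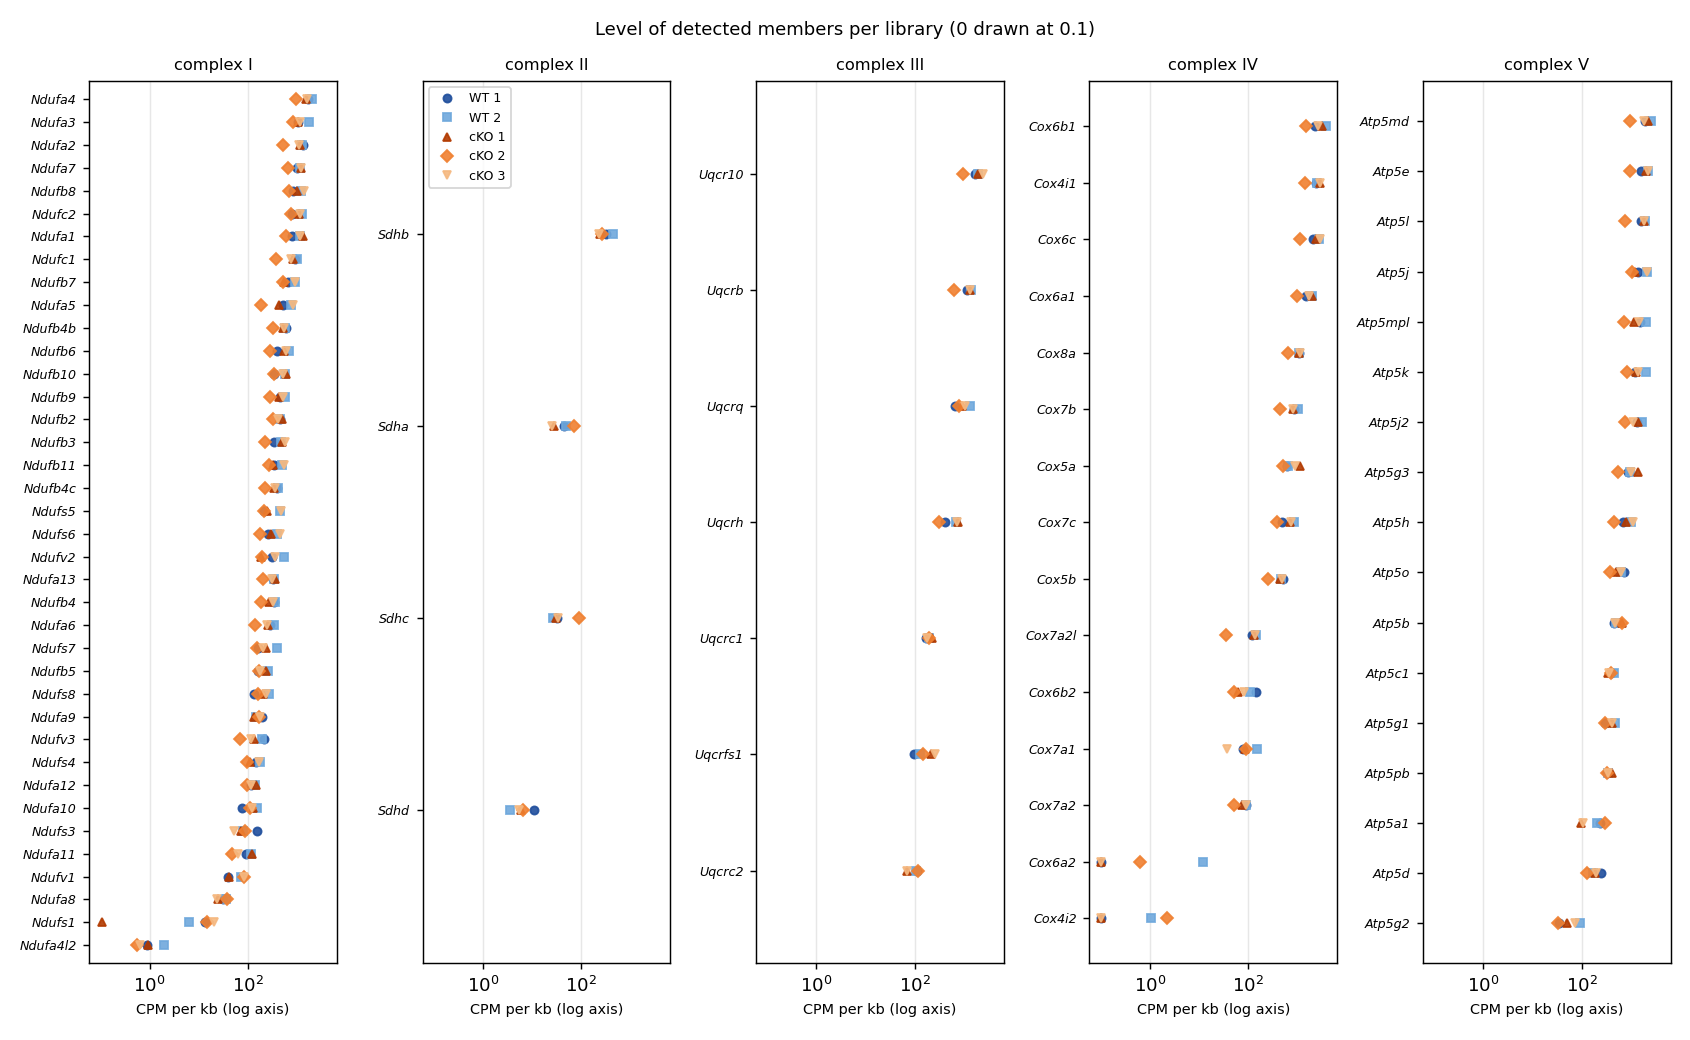
Level of respiratory chain genes with counts, in CPM per kb of exon length on a log axis, with 1 point per library and 1 panel per complex, and with 0 drawn at the left edge. Medians are over members at 1 CPM or more in every library. Complex II has the lowest, 42.7 CPM per kb, and complexes IV and V the highest, 758 and 819 CPM per kb.

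The 3 highest members per length were all subunits of complex IV, the cytochrome c oxidase. Cox6b1, a subunit facing the intermembrane space, lay at 2269 and 3793 CPM per kb in WT and at 3146, 1468 and 2570 CPM per kb in cKO. Cox4i1, a regulatory subunit, averaged 2442 CPM per kb and Cox6c averaged 2238 CPM per kb. In complex V the highest were Atp5md (1932 CPM per kb), Atp5e, the epsilon subunit of the F1 head (1835), and Atp5l (1619), and in complex III they were Uqcr10 (1793), Uqcrb (1162) and Uqcrq (946). In complex I the highest were Ndufa4 (1566 CPM per kb), Ndufa3 (1156) and Ndufa2 (1054). The iron-sulfur subunit Sdhb was the highest of complex II at 297 CPM per kb. The membrane anchor Sdhd, at 6.47 CPM per kb, was the lowest of all members detected in every library.

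No counts were found in any library for 4 members. They were Cox7b2 and Cox8c, both typical of testis, Cox8b, typical of heart and skeletal muscle, and Uqcr11, a small subunit of complex III that belongs to the complex in all tissues. With 0 counts the level could lie at up to 0.106 CPM in the deepest library and up to 0.257 CPM in the shallowest, the value of 3 counts. Such floors cover counting error only, because amplified copies of a molecule cannot be told from separate molecules. The other small subunits of complex III named above lay at 946 CPM per kb or more, and the sources used here do not name the annotation version behind the table.

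A further 4 members reached 1 CPM in some libraries only. Cox6a2, the heart and skeletal muscle isoform of the Cox6a subunit, had 134 counts in WT replicate 2, 12 in cKO replicate 2 and none in the other 3. Cox4i2, an isoform typical of lung, had 13 and 47 counts in the same libraries and none in the other 3. Ndufa4l2, a paralog of Ndufa4 known to respond to low oxygen, had 16 and 32 counts in WT and 14, 15 and 7 in cKO. The muscle and brown fat genes Myh1, Myh4, Ckm, Actn3, Myl1 and Ucp1 were at 0 in every library, while Acta1, skeletal muscle actin, lay at 7.70 to 11.5 CPM in every library and Cidea, a lipid droplet gene of brown fat, had 422, 176 and 293 counts in WT replicate 2 and cKO replicates 2 and 3 and none in the other 2. The part of such cells in the counts of Cox6a2 was not tested.

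Ndufs1, the largest subunit of complex I and the one that carries several iron-sulfur clusters of its peripheral arm, was nearly absent from 1 library. It had 744 and 308 counts in WT and 5, 1244 and 704 counts in cKO, which is 39.2 and 18.1 CPM against 0.312, 43.8 and 60.2 CPM. Replicate 1 of cKO stood apart from the other 4 libraries, and the groups overlapped. The gene (chromosome 1, 63143592 to 63176822, GRCm38.p6) shares exon positions with Eef1b2 and Ino80dos, and whether the counting used strand is not given. Its spread over the 5 libraries was an SD of 2.55 on the log2 scale, the largest of the members tested, against a median of 0.461. The smallest was that of Atp5pb, a stalk subunit of the ATP synthase, which ranged from 477 to 600 CPM (SD 0.134). The median SD of the 1576 tested genes averaging 100 CPM or more was 0.459.

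Where a subunit of complex IV has tissue isoforms, 1 isoform carried most of the level per length in every group but Cox7a. Cox4i1 made up 99.8% to 100% of the Cox4i level, Cox6a1 99.4% to 100%, Ndufa4 99.9% to 100% of Ndufa4 and Ndufa4l2, and Cox7b and Cox8a all of theirs. Cox6b1 made up 93.9% to 98.0%, with the rest from Cox6b2, the isoform typical of testis. The Cox7a group was mixed. Cox7a1, typical of heart and skeletal muscle, lay at 29.0 and 54.8 CPM in WT and 31.1, 33.0 and 13.9 CPM in cKO, and Cox7a2, the isoform of most tissues, at 68.9 and 68.1 CPM and 56.4, 38.8 and 67.1 CPM. Per length, Cox7a1 took 14.2% to 51.1% of the group, Cox7a2 23.6% to 33.3% and Cox7a2l 19.6% to 52.5%. The order of the 3 within a library differed between libraries of the same genotype.

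The 3 genes for the c-ring subunit of the ATP synthase encode the same mature protein with different import sequences. Atp5g3 gave 62.2% to 75.0% of their level per length, Atp5g1 22.3% to 34.0% and Atp5g2 2.78% to 5.95%, and the groups overlapped for each. Ndufb4 and the like-named genes Ndufb4b and Ndufb4c took nearly constant parts in every library, 24.1% to 26.6%, 42.7% to 45.5% and 29.4% to 30.7%. Since how reads that match several genes were handled is not given, the split between these 3 is uncertain. A further 5 pseudogenes with names like those of members were counted separately and left out, the highest of which, Ndufs5-ps, lay at 155 to 349 CPM.

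Together the 86 members took 3.04% and 3.80% of all counts in the WT libraries and 3.03%, 2.34% and 3.33% in the cKO libraries. The mean was 3.42% ± 0.539 in WT (SD, n = 2) and 2.90% ± 0.504 in cKO (SD, n = 3), and the groups overlapped. In bulk RNA, fewer cells of a type and less RNA per cell cannot be told apart, and here shares of a total also move with every other transcript. The lowest share was that of cKO replicate 2, and the highest that of WT replicate 2. Counted in each complex, the share was 1.03% and 1.31% against 0.961%, 0.759% and 1.13% for complex I. For complex IV it was 0.742% and 0.923% against 0.812%, 0.488% and 0.833%, and for complex V 0.967% and 1.17% against 0.929%, 0.805% and 0.998%. Complex III took 0.252% and 0.328% against 0.292%, 0.226% and 0.333%, and complex II 0.0522% and 0.0650% against 0.0350%, 0.0661% and 0.0348%. Every complex overlapped between the genotypes. Among member counts alone, complex I took 31.7% to 34.5% and complex V 30.0% to 34.4%, whichever the library.

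**Figure D2:**
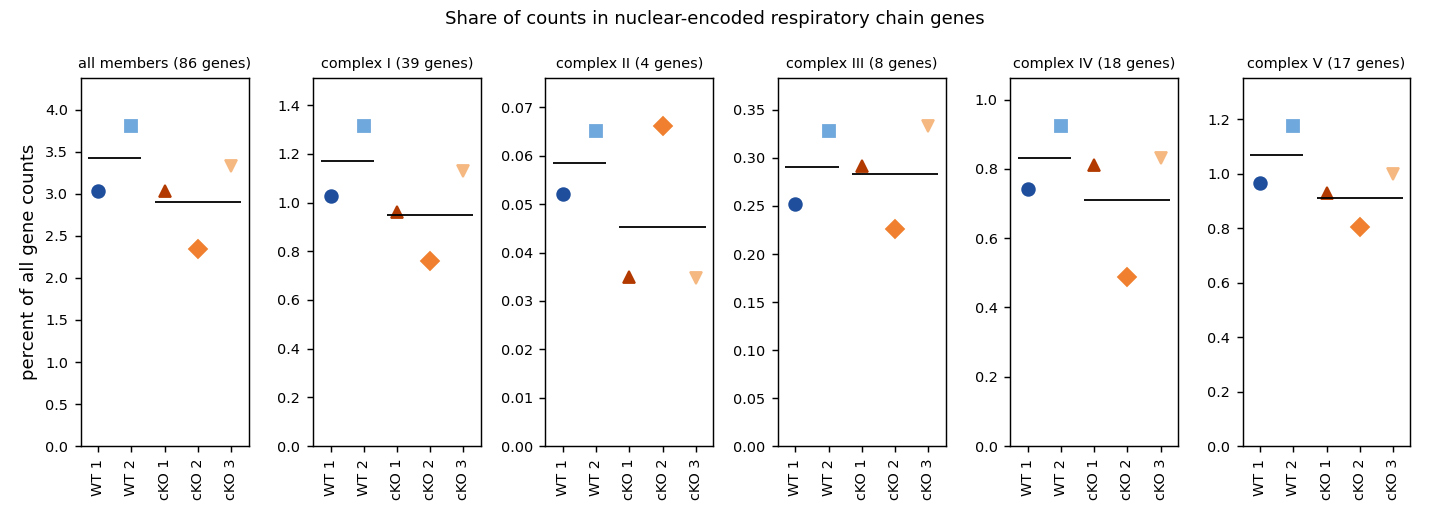
Percent of all gene counts in each library taken by the nuclear respiratory chain genes, for all 86 and for each complex, with 1 point per library and a line at each group's mean. Replicate 2 of cKO has the lowest share of nuclear members, 2.34%, and the WT libraries, at 3.04% and 3.80%, overlap the others.

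Between the genotypes no member passed the test. Of the 81 members with enough counts (Cox6a2 and the 4 at 0 were not tested), 66 had a negative and 15 a positive log2 fold change (cKO minus WT), with a median of -0.24, against a median of 0.058 over all 9988 genes tested. By edgeR's quasi-likelihood test with Benjamini-Hochberg adjustment 0 members passed at 0.05, as did 0 of all genes (0%), and the smallest adjusted p of a member was 0.968. At an unadjusted p under 0.05 there were 2 members on the lower side and 1 on the higher, beside 2.05% of all tested genes on the lower side and 2.1% on the higher. All cKO libraries were below every WT library in 16 of the 81 members (19.8%), where the share of all tested genes is 10.2%. Among genes averaging 100 CPM or more, members included, it was 15.5% under 700 bases and 17.1% at 700 to 1200 bases. From 1200 bases it was 10.9%. In the same length bands it was 20%, 23.5% and 15.8% of tested members, and no difference between these sets was tested. Among the 16 members were Ndufa2, Ndufa4, Ndufa6, Ndufb4, Ndufb4b, Ndufb4c, Ndufc1 and Ndufv3 of complex I, Sdhb of complex II, Cox6b2, Cox7a2 and Cox7b of complex IV, and Atp5c1, Atp5mpl and Atp5o of complex V. Some margins were narrow. The nearest WT and cKO values were 68.1 and 67.1 CPM for Cox7a2 and 499.6 and 494.8 CPM for Atp5o. All cKO libraries lay above both WT libraries in 1 member, Uqcrfs1 of complex III, where the share of all tested genes is 8.86%. Among genes averaging 100 CPM or more, that share was 1.16% under 700 bases and 3.47% at 700 to 1200 bases. From 1200 bases it was 13.7%. DESeq2 also called no member, with 2 at an unadjusted p under 0.05, while it called 191 genes over the table.

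Negative values outnumbered positive ones in each complex in the main fit. In complex I 33 of 39 lay lower (median -0.24), in complex IV 12 of 14 (-0.26), in complex V 14 of 17 (-0.26) and in complex II 3 of 4 (-0.24). In complex III 4 of 7 lay lower, with a median of -0.0020, but 3 of 7 with DESeq2 and 2 of 7 without cKO replicate 2. These counts rested largely on cKO replicate 2. It was the lowest library in 56 of the 79 tested members averaging 1 CPM or more. Without it 44 of 80 members lay lower, with a median of -0.044 beside -0.0087 over all tested genes. Without WT replicate 2, the highest in 34 members, 43 of 81 lay lower with a median of -0.085. In that fit the median over all tested genes was 0.37, against 0.058 with all libraries. With each of the other 3 libraries left out 67 to 71 members lay lower. Among the libraries titled LC (1 WT and 2 cKO) the members took 3.04% of the counts in WT and a mean of 2.69% in cKO, and among those titled Langerhans-cell (1 of each) 3.80% and 3.33%. The keratinocyte marker sum given above also did not overlap between the genotypes, and its part in these counts was not tested.

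**Figure D3:**
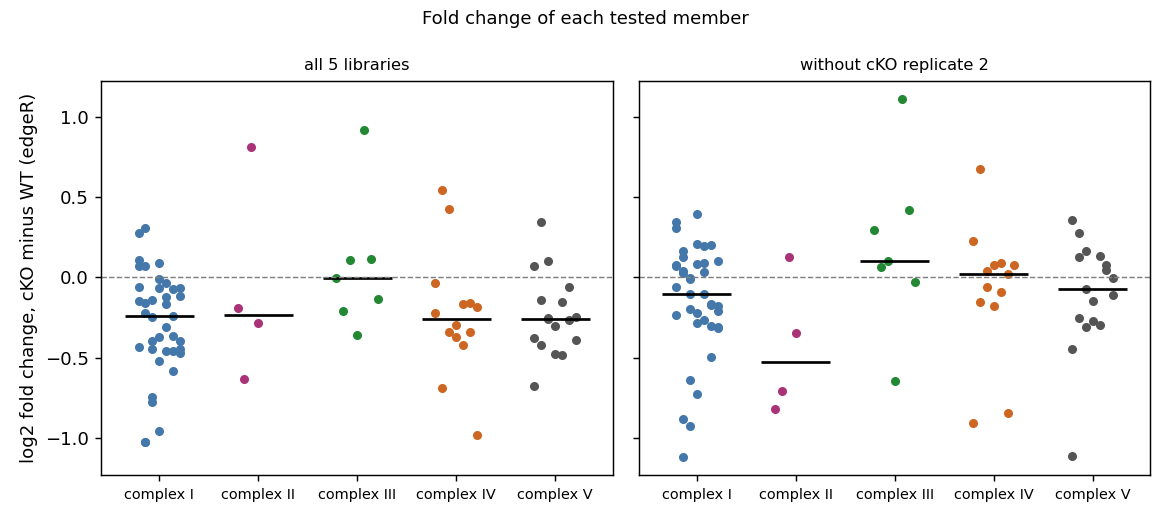
Log2 fold change (edgeR, cKO minus WT) of each tested respiratory chain gene by complex, with all 5 libraries on the left and without cKO replicate 2 on the right, where lines are medians. With all libraries 66 of 81 members lie below 0, and without that replicate 44 of 80 do.

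In cKO replicate 2 short members lay further below the other libraries than long ones. Respiratory chain transcripts are short, with a median exon length of 644 bases against 2491 for all tested genes, and 50 of the 86 are under 700 bases. In that library 44 of 45 tested members under 700 bases lay below the mean of the other libraries, with a median deviation of -0.87 on the scale of log2(CPM + 0.5). Those of 700 to 1200 bases had a median of -0.60, and those of at least 1200 bases one of 0.0076, with 10 of 19 above 0. Spearman's rho of deviation and length over 79 members, a description across genes of the same libraries, was 0.55 there and between -0.33 and 0.098 in the other 4 libraries. Genes of any function averaging 100 CPM or more, members at that level included, showed the same order there. Their medians were -0.90 under 700 bases and 0.048 from 1200 bases. In WT replicate 2 short members lay further above the other libraries than long ones, with medians of 0.46 and 0.27. Only 1 of those 45 short members lay below 0 in WT replicate 2. Genes averaging 100 CPM or more had medians of 0.38 and -0.084 there. Replicates 1 and 3 of cKO had medians of 0.18 and 0.25 for short members and of -0.24 and -0.14 for long ones. Among the 258 genes under 700 bases averaging 100 CPM or more, 71.3% lay lower in cKO (median -0.15), beside 86.7% of the 45 short members (median -0.22). The 2 sets are not separate, because the 258 hold the short members averaging 100 CPM or more. With the trend of level on length taken out of each library, 55 of 81 members lay lower and the median was -0.15. The part of library depth and preparation in this was not tested.

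**Figure D4:**
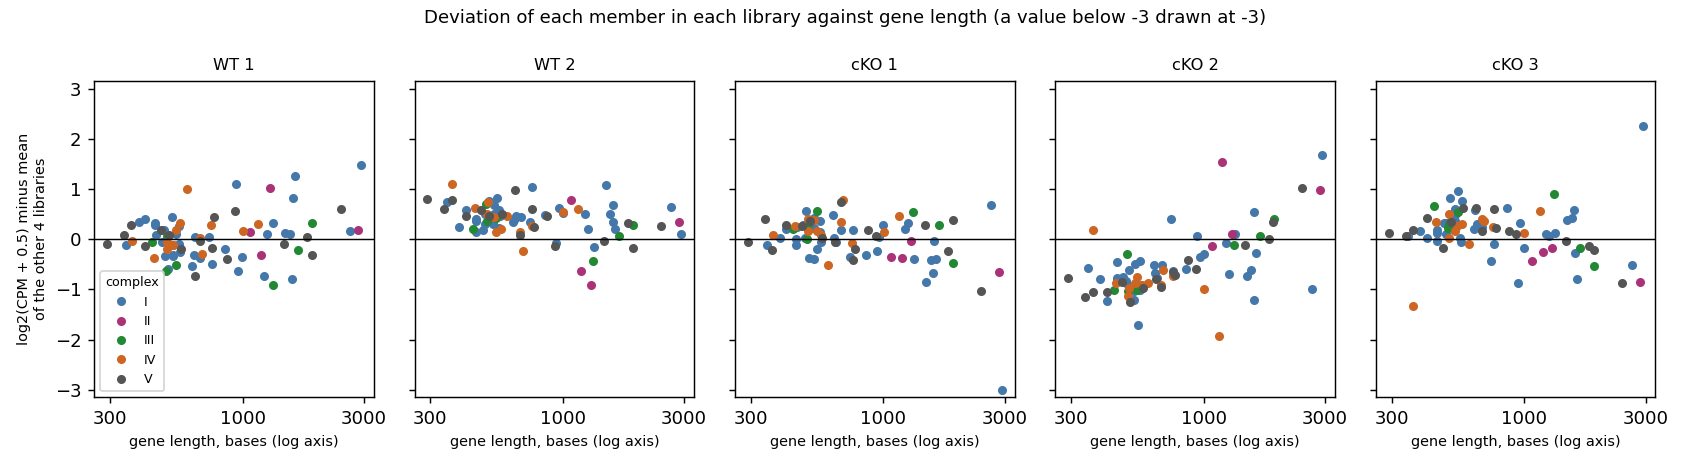
Deviation of each respiratory chain gene in each library from its mean in the other 4, on the scale of log2(CPM + 0.5), against gene length in bases on a log axis, with 1 panel per library and colours for complexes. In cKO replicate 2 the short genes lie below 0, with a median of -0.87, and the long ones a median of 0.0076.

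In complex I all cKO libraries lay below both WT libraries for Ndufv3, a small subunit at the NADH end of the complex. The gene (chromosome 17, 31520115 to 31531326) lay at 329 and 306 CPM in WT and 205, 107 and 178 CPM in cKO. The lowest of the 5 was cKO replicate 2. The log2 fold change was -0.96 (standard error 0.37, edgeR unadjusted p = 0.0362, adjusted p = 0.968), and -0.73 without that library.

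Of the next 5 subunits of complex I the groups overlapped in all but Ndufa4. Ndufv1, which binds NADH and flavin, lay at 61.1 and 115 CPM in WT and 65.9, 129 and 133 CPM in cKO. Ndufv2, its partner with an iron-sulfur cluster, lay at 455 and 775 CPM and at 266, 284 and 527 CPM. Replicate 2 was the higher WT library in each. Ndufs3, a subunit of the peripheral arm, lay at 144 and 74.9 CPM against 68.0, 80.8 and 47.8 CPM, and Ndufa5 at 278 and 415 CPM against 237, 102 and 450 CPM, also with overlap. Ndufa4 lay at 831 and 993 CPM in WT and at 759, 475 and 796 CPM in cKO, so that all cKO libraries were lower (log2 fold change -0.43, standard error 0.32). The median of complex I was -0.10 without cKO replicate 2.

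The 4 subunits of succinate dehydrogenase, complex II, which also belongs to the citric acid cycle, did not share a pattern. Sdhb lay at 335 and 476 CPM in WT and at 255, 287 and 243 CPM in cKO. Every cKO library was below both WT libraries, with a log2 fold change of -0.63 (standard error 0.30, edgeR unadjusted p = 0.0743, adjusted p = 0.968). Sdha, the flavoprotein subunit that oxidises succinate, lay at 127 and 139 CPM in WT and at 79.8, 198 and 71.0 CPM in cKO. Replicate 2 of cKO was the highest of all 5 libraries and the other cKO libraries the lowest, so the log2 fold change of -0.19 became -0.82 without it. The anchor Sdhc lay at 37.5 and 31.3 CPM in WT and at 36.4, 106 and 38.8 CPM in cKO, where replicate 2 again stood above the rest. Its log2 fold change of 0.81 became 0.13 without that library. The anchor Sdhd had 267 and 77 counts in WT and 123, 235 and 82 in cKO, and the groups overlapped.

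Uqcrfs1 was the member of complex III with the smallest p-value and the only member whose cKO libraries all lay above both WT libraries. It encodes the Rieske iron-sulfur protein, which passes electrons to Cyc1 (chromosome 13, 30540312 to 30545316). The level was 126 and 164 CPM in WT and 282, 196 and 344 CPM in cKO. The log2 fold change was 0.92 (standard error 0.37, edgeR unadjusted p = 0.0434, adjusted p = 0.968), and it lay between 0.72 and 1.12 with each library left out. The core subunits Uqcrc1, at 283 and 329 CPM against 371, 328 and 289 CPM, and Uqcrc2, at 205 and 201 CPM against 132, 216 and 128 CPM, overlapped between the groups. Uqcr10 had a log2 fold change of -0.0020.

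In complex IV Cox6b2 had the smallest p-value. It lay at 89.0 and 66.5 CPM in WT and at 38.2, 31.4 and 48.6 CPM in cKO, all 3 below both WT libraries. The log2 fold change was -0.98 (standard error 0.52, edgeR unadjusted p = 0.104, adjusted p = 0.999). Its abundant isoform Cox6b1 overlapped between the groups, at 1146 and 1916 CPM and at 1589, 741 and 1298 CPM. Cox4i1 lay at 1626 and 1740.3 CPM against 1946, 975 and 2003 CPM. In that gene cKO replicate 2 was the lowest library and the other 2 cKO libraries the highest. Cox5a, a subunit on the matrix side of the enzyme, lay at 429 and 443 CPM in WT and at 778, 357 and 618 CPM in cKO, where cKO replicate 2 was again the lowest library and the other 2 cKO libraries the highest. Cox7b, an X-linked subunit, lay at 840 and 1036 CPM against 835, 444 and 826 CPM, so the groups were apart by a narrow margin between replicate 1 of each.

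In complex V the member with the smallest p-value was Atp5mpl, a small proteolipid of the membrane part. It lay at 557 and 732 CPM in WT and at 421, 264 and 526 CPM in cKO, all 3 below both WT libraries (log2 fold change -0.68, standard error 0.36, edgeR adjusted p = 0.999). The catalytic beta subunit Atp5b lay at 858 and 932 CPM in WT and at 1269.9, 1235 and 907 CPM in cKO, with overlap. Other subunits of the F1 head had other orders of libraries. Atp5a1, the alpha subunit, lay at 587 and 490 CPM against 239, 743 and 260 CPM, where cKO replicate 2 was the highest and the other 2 cKO libraries the lowest. Its log2 fold change of -0.38 became -1.11 without that library (edgeR adjusted p = 0.735). The gamma subunit Atp5c1 lay at 718 and 836 CPM against 611, 702 and 647 CPM, with the groups apart. Atp5j, the coupling factor, lay at 1052 and 1621 CPM against 923, 809 and 1622 CPM, and its exons overlap those of Gabpa.

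**Figure D5:**
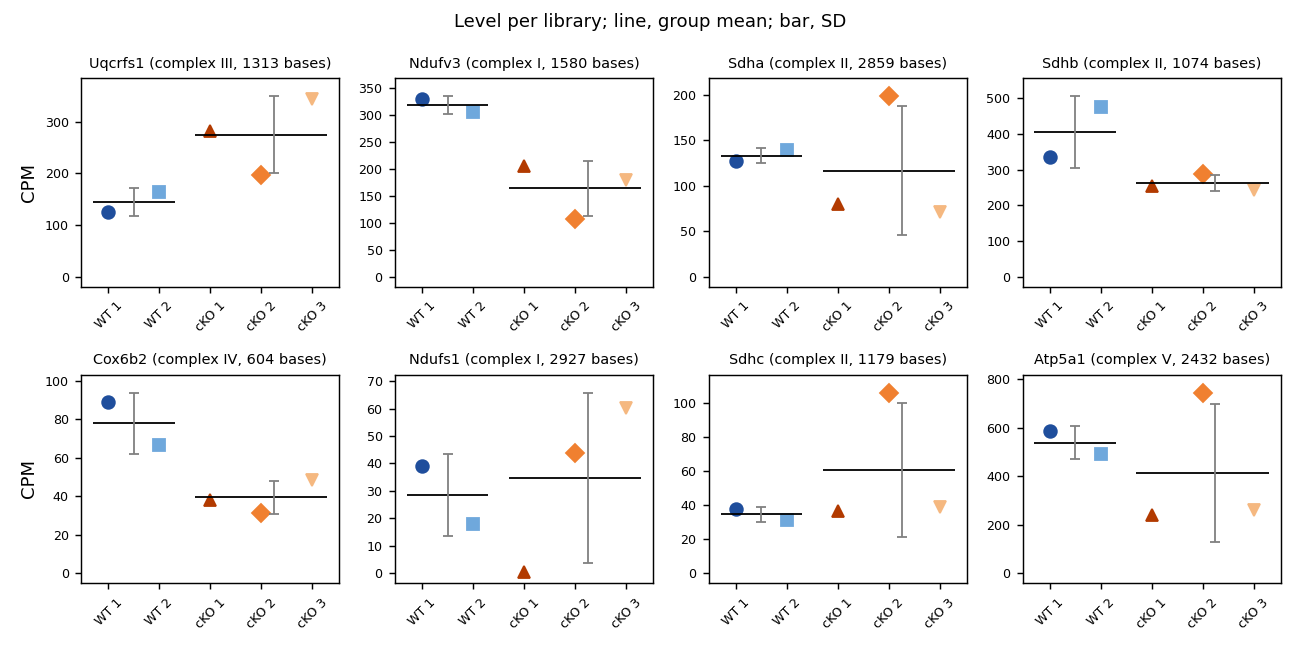
TMM-normalised CPM in each library for 8 respiratory chain genes, with a line at each group's mean and a bar for its SD. Ndufv3, Sdhb and Cox6b2 have all cKO libraries below both WT libraries and Uqcrfs1 has them above, while Ndufs1 has cKO replicate 1 at 0.312 CPM.

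The 13 mitochondrially encoded subunits of the same complexes all had a positive log2 fold change, with a median of 0.31, under each scaling tried. Their levels overlapped between the groups and none passed the test. Without WT replicate 1 the median was -0.042, and 6 of 13 were positive. They took 3.09% and 6.12% of all counts in WT and 6.50%, 3.01% and 7.19% in cKO. For each count of a nuclear member there were 1.02 and 1.61 counts of mitochondrial genes in WT and 2.15, 1.28 and 2.16 in cKO. The cytosolic ribosomal proteins, which also have short transcripts, took 3.42% and 4.29% in WT and 4.03%, 2.51% and 4.36% in cKO. Of 98 tested, 52 had a negative and 46 a positive log2 fold change, and the median was -0.018. Without cKO replicate 2 the ribosomal median was 0.24. Counts of nuclear members per count of ribosomal proteins were 0.889 and 0.886 in WT and 0.752, 0.936 and 0.763 in cKO. Replicates 1 and 3 of cKO lay below the WT values and replicate 2 above them. No difference between these sets and the members was tested.

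Other genes of the pathway came from lists of assembly factors, carriers, coenzyme Q synthesis, regulators, the citric acid cycle, ATP export and mitochondrial ribosomal proteins, and none of their genes passed the test. Of 24 assembly factors of complexes I to III 12 lay higher and 12 lower. Uqcc3, an assembly factor of complex III, lay at 84.3 and 52.5 CPM in WT and 19.2, 6.69 and 12.7 CPM in cKO (log2 fold change -2.41, standard error 0.78, edgeR unadjusted p = 0.0182). Its cKO libraries were all below. Sdhaf1, which assembles the iron-sulfur subunit of complex II, had 151 and 282 counts in WT and 0 in every cKO library. With the floor of 3 counts set over the group, it was at least 225-fold lower if only counting error is considered. That bound was 149-fold without WT replicate 2 and 111-fold without cKO replicate 2, and it leaves out the spread between libraries. The log2 fold change was -10.8 (standard error 3.55, edgeR unadjusted p = 0.0289, adjusted p = 0.968). On the higher side the values were 0, 0.176, 5.80, 3.84 and 11.8 CPM for Timmdc1 and 19.5, 7.51, 40.8, 26.2 and 28.4 CPM for Uqcc1, in the order WT replicates 1 and 2 and cKO replicates 1 to 3. Of 17 tested assembly factors of complexes IV and V 7 lay higher and 10 lower, with Cox16 (log2 fold change 1.07) and Tmem70 (1.07) the first on the higher side and Cox20 (-0.64) and Surf1 (-0.87) on the lower.

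The subunits and carrier outside the symbols had negative log2 fold changes, with Cycs (cytochrome c) at -0.40, Cyc1 at -0.49 and Ndufab1 at -0.22. Of 11 genes of coenzyme Q synthesis 4 lay higher and 7 lower. In that list Coq4 was at 0 in both WT libraries and cKO replicate 1 and at 7.18 and 13.9 CPM in the other cKO libraries. Coq10a (4.27) and Coq6 (-2.60) had standard errors of 3.05 and 2.14, so the intervals of both were wide. Of 10 tested regulators 5 lay higher and 5 lower. Tfb2m, a mitochondrial transcription factor, had 47 and 328 counts in WT and 0 in every cKO library. By the floor over the group it was at least 195-fold lower if only counting error is considered. That bound was 46.4-fold without WT replicate 2, 360.1-fold without WT replicate 1 and 96.3-fold without cKO replicate 2. The log2 fold change was -10.6 (standard error 3.67, edgeR unadjusted p = 0.0366, adjusted p = 0.968). Yy1 lay at 51.4 and 26.4 CPM in WT and 1.93, 14.0 and 3.08 CPM in cKO (edgeR unadjusted p = 0.0965). Nrf1 lay at 15.9 and 0.646 CPM against 7.55, 8.52 and 31.5 CPM and Gabpa at 13.3 and 0.704 CPM against 19.7, 13.7 and 3.34 CPM, both with overlap. The coactivator Ppargc1a had no counts in any library, so the level could lie at up to 0.257 CPM.

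The citric acid cycle, which supplies the chain with NADH, had 7 genes higher and 11 lower of 18. Fumarase Fh1 lay at 223 and 149 CPM in WT and at 91.3, 64.1 and 99.4 CPM in cKO (log2 fold change -1.13, standard error 0.39, edgeR unadjusted p = 0.0244). Suclg1 of succinyl-CoA ligase lay at 205 and 339 CPM against 171, 119 and 97.2 CPM (-1.07). For both genes the cKO libraries lay below the WT libraries. Of 8 genes of ATP export and coupling 3 lay higher and 5 lower, with the phosphate carrier Slc25a3 at 0.54 and the channel Vdac2 at -0.67. Of 76 mitochondrial ribosomal proteins 29 lay higher and 47 lower (median -0.17), with Mrps25 at -1.56.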

How the data were processed

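Messenger RNA of purified Langerhans cells was sequenced in 5 libraries, with total counts given above. The authors deposited raw counts per gene beside a gene length in bases. The submitters' processing notes name featureCounts and mm10. The sources used here do not give the aligner, the versions, whether strand was used or what was done with multi-mapping reads, so overlapping genes (23 of the 83 members found in GENCODE share exon positions with another counted gene) and close paralogs are uncertain. The 5 files per sample held the same counts as the series table, and no same-group libraries agreed within counting noise (chi-square per degree of freedom 161 to 376). Symbols for 25275 genes came from RefSeq on GRCm38.p6 and for 18 from GENCODE. No symbol was found for 1886 genes, with 1.46% to 2.30% of the counts.

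Libraries were grouped by the genotype labels. Genes were kept by filterByExpr (minimum count 10), scaled by TMM and tested in edgeR 4.0.16 (R 4.3.3) by a robust quasi-likelihood F test (legacy setting) over all 9988 genes kept, with Benjamini-Hochberg adjustment at 0.05. CPM divides the count by the TMM-normalised library size. P-values measure only the spread between these libraries. Alternatives were DESeq2 1.42.0, limma 3.58.1 (voom with quality weights), RLE and upper-quartile factors, other filters and dispersion fits, a replicate block, a term for the style of the titles (LC or Langerhans-cell), leaving out each library, and, chosen after seeing the data, offsets that take out the trend on length. Only the main edgeR fit was also run on simulated counts, and the alternatives were not.

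The members and the lists were chosen with earlier results of these data known. Named were, per complex, the 3 highest per kb and the 2 with the smallest p in each direction, all of complex II, isoforms, members with an unadjusted p under 0.05 or 0 counts in a library, and up to 2 genes per direction in each pathway list. Ndufs1, Atp5a1, Ndufv2, Atp5c1, Ndufb4, Ndufb4b, Ndufb4c, Atp5j, Ndufa5, Ndufs3 and any other gene outside that rule were picked with their values in view. Some results under the rule are not reported here. Summaries and plots used Python 3.11.15 with matplotlib 3.10.9.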

Additional observations from a re-analysis of the deposited data

How the results depend on the processing

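Across 16 other settings of the fit no member passed the threshold, and the smallest adjusted p of a member was 0.403 (DESeq2). The number of genes called over the whole table, 0 in the main fit, was 191 with DESeq2 (137 higher and 54 lower) and 1 with the replicate block. The numbers in the titles give only 2 pairs and same-numbered libraries did not deviate together (correlations of -0.023 and -0.0052), so they were not taken as pairs. With the block the median over members was -0.43, with 71 of 81 lower. Limma-voom moved the median of all genes from 0.058 to -0.091, and leaving out WT replicate 1 or 2 moved it to 0.29 or 0.37. The median over members stayed negative in every setting, at -0.15 with the length trend taken out, -0.16 with the title style as a term (-0.24 within the libraries titled LC and -0.15 within those titled Langerhans-cell), and between -0.38 and -0.044 with each library left out.

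Of 797 alternative values for the 50 tested members named, 46 had the other sign, in 21 members. The cause was not tested. With the length trend taken out they were Atp5g1 (0.049), Cox4i1 (0.012), Uqcr10 (0.039) and Uqcrq (0.073), and with the title style Atp5g1 (0.041), Atp5g2 (0.034), Uqcr10 (0.037) and Uqcrq (0.056). With limma-voom they were Atp5g1 (0.0018), Cox4i2 (-0.98) and Ndufs1 (-1.37), and with the replicate block Atp5g3 (-0.11) and Ndufs1 (-2.71). Uqcr10 was at 0.0074 with DESeq2 and with RLE factors and at 0.012 with upper-quartile factors. With each library left out the ranges that crossed 0 were -0.37 to 0.13 for Atp5e, -0.36 to 0.32 for Atp5g1, -0.77 to 0.61 for Atp5g2, -0.25 to 0.36 for Atp5g3, -0.62 to 0.089 for Atp5j, -0.46 to 0.049 for Atp5l, -0.21 to 0.23 for Cox4i1, -0.45 to 6.43 for Cox4i2, -0.37 to 0.078 for Cox6a1, -0.66 to 0.074 for Cox6b1, -0.50 to 0.079 for Cox6c, -0.68 to 0.040 for Cox7a2l, -0.33 to 0.025 for Cox8a, -0.19 to 0.50 for Ndufb10, -0.33 to 0.95 for Ndufs1, -0.076 to 0.85 for Ndufv1, -0.82 to 0.085 for Sdha, -0.87 to 0.76 for Sdhd, -0.32 to 0.29 for Uqcr10, -0.38 to 0.063 for Uqcrb and -0.57 to 0.50 for Uqcrq.

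The share of counts in the members differed between the group means by -0.521 percentage points, beside a spread between libraries of 0.516 (SD). It was between -0.447 and -0.539 under the other denominators and memberships, -0.357 for members under 700 bases only (chosen after seeing the data), and between -0.902 and -0.139 with each library left out. With 2 and 3 libraries the median standard error of a member's log2 fold change was 0.39, which limits what could be seen.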
